A study of Drosophila melanogaster with 6 samples.

Results

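The genes described here build branched and unbranched actin filaments. They comprise SCAR, Hem, Abi, Sra-1 and HSPC300, which encode the 5 subunits of the SCAR complex, the related factor WASp, the Arp2/3 subunit genes Arpc3A and Arpc3B, and the formin genes dia and DAAM. They were taken by symbol from a deposited count table of 16666 genes, and all 10 symbols were found. RNA was measured in astrocytes sorted from Drosophila melanogaster brains, with 2 libraries from larvae of the third instar (L3), before neuronal remodelling, and 4 from adults, after it. All flies carried UAS-mCD8::GFP; Alrm-Gal4; UAS-RedStinger, so the red nuclear marker used for sorting was made where the Alrm driver is active. Each library was made from a pool of 1000 DsRed+ cells. The flies of both stages were reared at 25 °C. Dissociation at 29 °C took 15 min for larval and 30 min for adult brains, so enzyme time cannot be told apart from stage. The sources used here do not give adult age or sex. Nothing in the labels says that the pools came from separate animals, so p-values measure only the spread between these libraries.

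Actin filaments rarely start by themselves in cells and need a nucleator. The Arp2/3 complex starts a new filament as a branch on an existing one once a promoting factor has switched it on. SCAR, also called WAVE, is the promoting factor of sheet-like protrusions and is held inactive in a complex with Hem, Sra-1, Abi and HSPC300 until the GTPase Rac binds Sra-1. WASp is a promoting factor of the same family that responds to Cdc42 signalling, and formins such as dia and DAAM start and elongate unbranched filaments. Astrocytes of the fly extend fine actin-rich processes into the neuropil, and the title of the series concerns actin-dependent infiltration by these cells.

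The libraries held 1923097 and 2641671 counts in L3 and between 745129 and 1287871 in adult, so depth also moved with stage. The astrocyte gene alrm was at 861 and 1346 CPM in L3 and between 994 and 1628 CPM in adult. CPM is the count divided by the library total, times 1e6. The glial gene repo was at 225 and 228 CPM in L3 and 515 to 701 CPM in adult. The summed level of 8 astrocyte markers, alrm and repo among them, was 3953 and 5814 CPM in L3 and 10931 to 16948 CPM in adult. The summed level of 14 neuron markers was 170 and 316 CPM in L3 and 435 to 656 CPM in adult, with futsch at 0 in every library. For 6 hemocyte markers the sum was 70.7 and 82.5 CPM in L3 and 937 to 1611 CPM in adult, nearly all of it Hml in adult. In sorted pools, fewer cells of a type and less RNA per cell cannot be told apart.

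Most of the 10 rows did not have counts distinct from those of a neighbouring row. Of these genes, 7 shared their counts with a neighbouring row, meaning a row at most 10 places away in the table, both with at least 30 counts, that differed by under 5% of the summed counts. Over all genes with at least 30 counts, 58.5% did so. Arpc3B, with 26 counts, also had exactly the counts of its neighbour CG4991. In the Ensembl annotation of assembly BDGP6, the closest neighbour of 5 of these 8 genes lay on the opposite strand with the 3′ ends of both genes facing each other, and that of the other 3 lay on the same strand. The sources used here do not say whether counting used strand.

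The closest neighbours were as follows. The Sra-1 row, filed under the symbol Cyfip in RefSeq and on chromosome arm 3R, differed by 2 counts in total from CG6218, which has the RefSeq symbol Nagk and overlaps its 3′ end. The SCAR row on 2L differed by 16 counts from piwi, a gene of the small RNA pathway that protects the germline, whose 3′ end also overlaps. Hem on 3L had nearly the counts of Srpk79D, and WASp on 3R those of Apc. Abi on 3R had the counts of CR44237 and, within 2 counts, those of CG14357 and Kif19A. HSPC300 on 2R differed by 16 or 17 counts from CR45350, CG30172 and Chi. Arpc3A on 3R had, within 5 counts, those of the respiratory chain gene ND-23 and of mir-4911. DAAM on the X chromosome was only loosely like its neighbour CG32812, with a difference of 14.9% of the summed counts. For dia on 2L no neighbouring row came within 30%. RNA of a member and RNA of its neighbour cannot be told apart in a shared row, so each level below belongs to the row and not with certainty to the named gene.

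**Figure D1:**
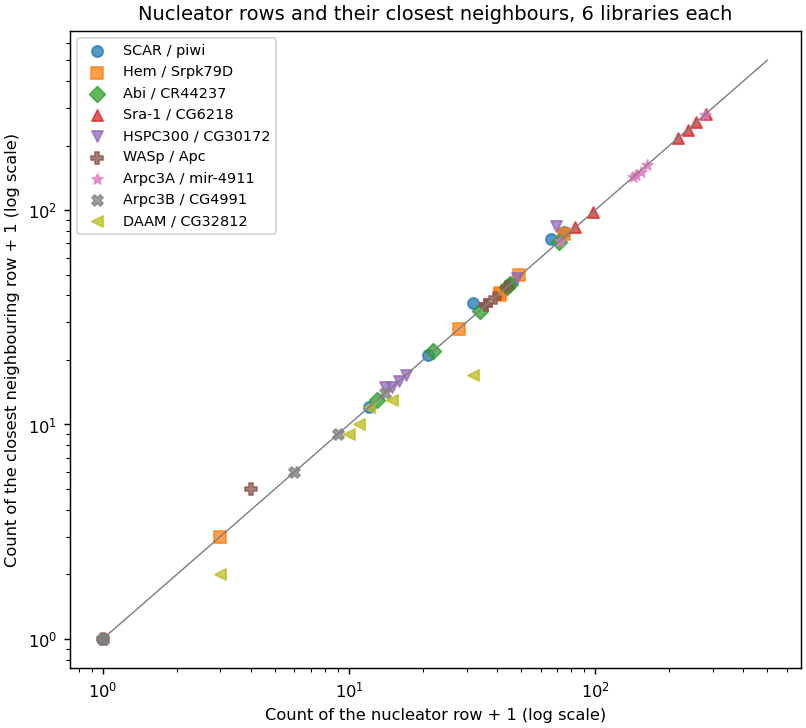
Counts of 9 nucleator rows (horizontal) against their closest neighbouring row in the table (vertical), each plus 1, on log axes. Every symbol is 1 of 6 libraries and the line marks equal counts; all pairs but DAAM and CG32812 lie on or beside the line.

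Among these genes the Sra-1 row rose in adult astrocytes. Its level was 89.3 and 50.4 CPM in the L3 libraries and 235, 110.0, 237 and 198 CPM in adult libraries 1 to 4. All adult values lay above both L3 values. The mean went from 69.9 ± 27.5 CPM (SD, n = 2) to 195 ± 59.3 CPM (SD, n = 4), a log2 fold change of 1.41 with a standard error (SE) of 0.42 and an adjusted p of 0.0184 with edgeR's quasi-likelihood test over 9082 genes. It was the only call among the 8 members that could be tested, where 22.7% of all tested genes were called and 9.67% were called higher. A share of 1 in 8 is near that background and is no result about the group. The call was lost under 4 of 17 alternatives, among them leaving out L3 library 2 (log2 fold change 0.97, adjusted p = 0.21) and edgeR's earlier quasi-likelihood method (adjusted p = 0.0783). Without L3 library 1 the log2 fold change was 2.11 (adjusted p = 0.024). Of 12 neuron markers tested, 3 were called higher and 0 lower. That is 25.0%, against 22.7% of all tested genes called either way and 9.67% called higher. All 12 had a positive log2 fold change, with a median of 1.39, against 4178 positive among 9082 tested genes. Of 8 astrocyte markers, 6 were higher and 1 lower, or 87.5%. Of 9 tested markers of surface, cortex and ensheathing glia, 3 were higher and 1 lower, or 44.4%. The summed hemocyte markers went from a mean of 76.6 CPM in L3 to 1360 CPM in adult, and Hml alone from 32.3 to 1278 CPM. Of 3 tested hemocyte markers, 1 was higher and 0 lower, or 33.3%. The part of these cell types in the Sra-1 difference was not tested.

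**Figure D2:**
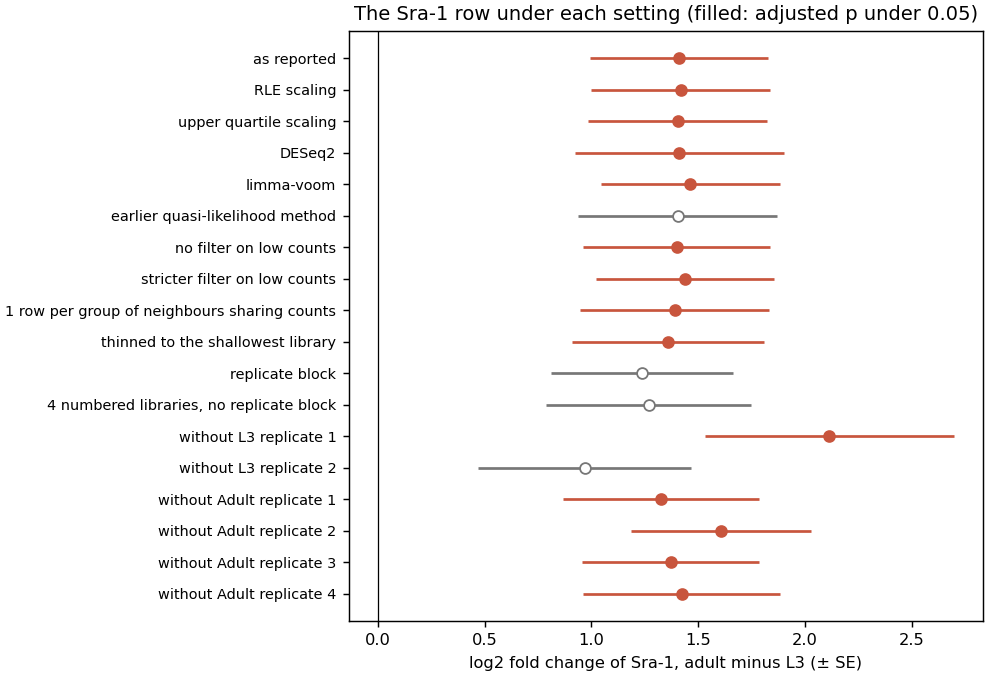
The log2 fold change of the Sra-1 row, adult minus L3, with its SE, under the reported setting and 17 alternatives. Filled red points passed an adjusted p of 0.05; all points lie above 0, and 13 of the 17 alternatives passed.

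The other subunits of the SCAR complex did not pass the test. SCAR itself, the subunit that activates Arp2/3, had 24.6 and 38.5 CPM in L3 and 9.18, 59.1, 21.9 and 24.1 CPM in adult libraries 1 to 4. The adult values spanned the L3 values on both sides, and the means were 31.5 ± 9.81 CPM (SD, n = 2) and 28.6 ± 21.4 CPM (SD, n = 4). Its log2 fold change was -0.27 with an approximate 95% interval of -1.55 to 1.01 (adjusted p = 0.799, edgeR), which leaves changes of either sign within it. Adult library 1 held the lowest and adult library 2 the highest SCAR level of the 6 libraries.

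Hem, the scaffold subunit that pairs with Sra-1, had 15.1 and 20.8 CPM in L3 and 22.5, 64.4, 2.19 and 57.5 CPM in adult libraries 1 to 4. Adult library 3 lay below both larval libraries and the other 3 adult libraries above them, so the stages overlapped (log2 fold change 1.0, SE 0.70, adjusted p = 0.329). Abi, the adaptor that links the complex to the Abl kinase, had 16.7 and 36.4 CPM in L3 and 17.5, 16.1, 47.1 and 25.6 CPM in adult. Its mean was 26.5 CPM in L3 and 26.6 CPM in adult, and the interval of its log2 fold change ran from -1.24 to 1.30 (adjusted p = 0.984).

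HSPC300, the smallest subunit, was the other row whose stages did not overlap. It had 25.7 and 24.4 CPM in L3 and 13.4, 20.1, 14.2 and 10.9 CPM in adult, all below the larval values. The mean of 25.1 ± 0.920 CPM (SD, n = 2) in L3 and 14.7 ± 3.92 CPM (SD, n = 4) in adult gave a log2 fold change of -0.88 (SE 0.64), which did not pass (adjusted p = 0.362). Its counts were 13 to 16 per adult library. Stages did not overlap in 2 of the 8 tested members, against 37.7% of all tested genes.

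**Figure D3:**
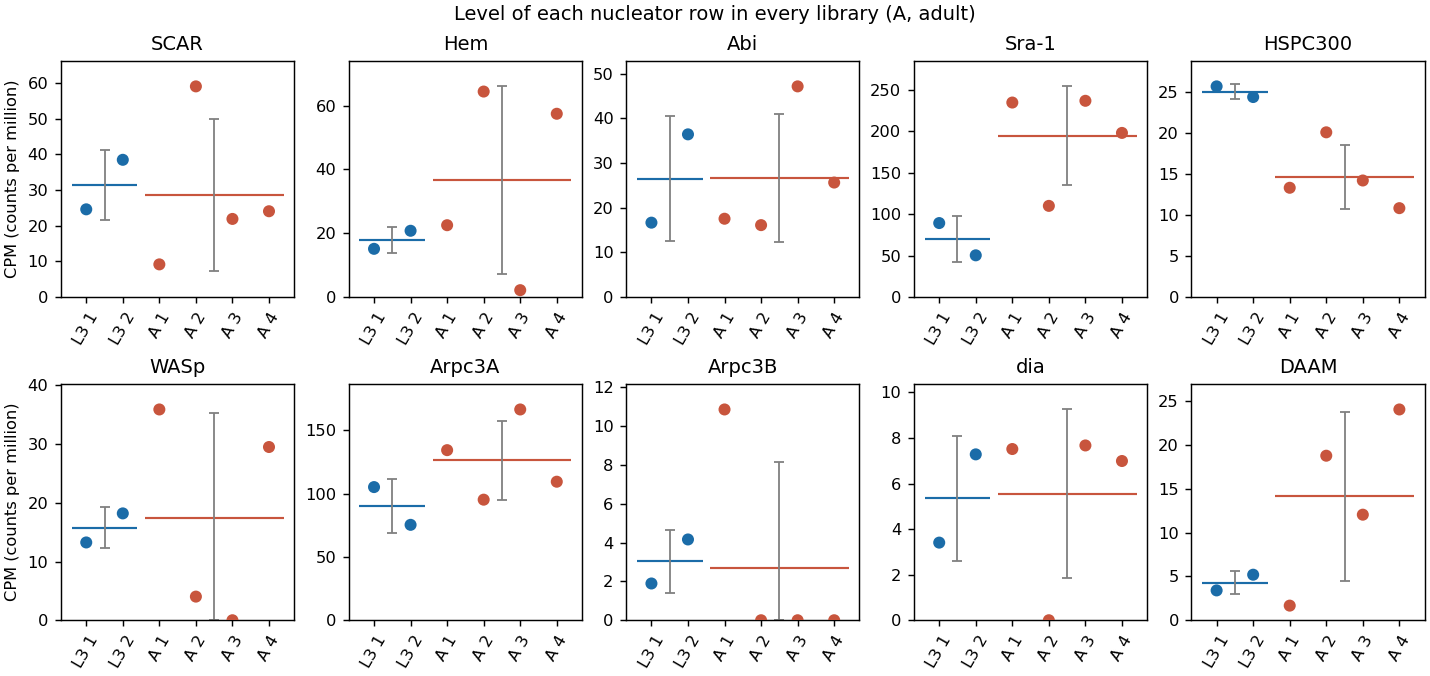
Level in CPM (vertical) of each of the 10 rows in the 2 L3 (blue) and 4 adult (red, A) libraries. Horizontal lines are stage means and grey bars the SD, stopped at 0; adult points lie apart from the L3 points in the Sra-1 and HSPC300 panels only.

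Summed over the 5 SCAR complex rows, the level was alike in both larval libraries, at 171.5 and 170.6 CPM, and was 297, 270, 322 and 316 CPM in adult libraries 1 to 4. Sra-1 held most of the difference between the stage means. Without it the other 4 rows summed to 82.1 and 120.1 CPM in L3 and to 62.6, 159.7, 85.5 and 118.0 CPM in adult. Their means were 101 ± 26.9 CPM (SD, n = 2) and 106 ± 42.2 CPM (SD, n = 4). In adult library 2 these 4 rows, at 159.7 CPM, lay above both larval sums. The makeup of the 5 rows varied between libraries of the same stage. Sra-1 gave 52.1% of their counts in L3 library 1 (95% Wilson interval 47.5% to 56.7%) and 29.6% in L3 library 2 (24.9% to 34.7%). In adult libraries 1 to 4 it gave 78.9%, 40.8%, 73.5% and 62.7%, so adult library 2 lay between the larval libraries. These intervals cover counting error only.

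**Figure D4:**
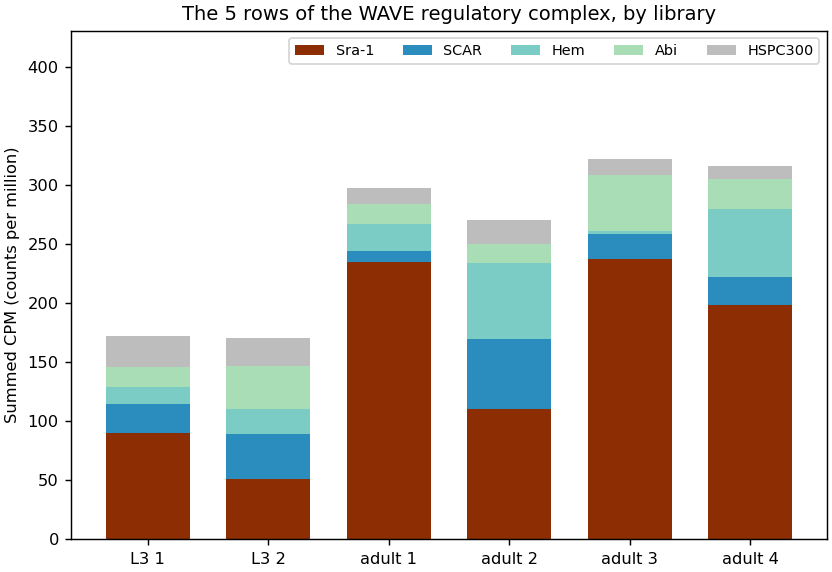
Summed CPM (vertical) of the 5 SCAR complex rows in each library, split by gene. The adult bars reach 270 to 322 CPM and the L3 bars about 171. The Sra-1 segment holds most of the difference between stage means. In adult library 2 the other segments together are also taller than in either L3 library.

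WASp varied more between adult libraries than between stages. It had 13.2 and 18.2 CPM in L3 and 35.9, 4.03, 0 and 29.5 CPM in adult libraries 1 to 4, from 43, 3, 0 and 38 counts. Adult libraries 1 and 4 were above both larval libraries and adult libraries 2 and 3 below both. The count of 0 in adult library 3 allows a level of up to 3.29 CPM. The adult coefficient of variation was 104%, against 22.3% in L3, and the log2 fold change of 0.32 (SE 0.78, adjusted p = 0.812) was well within that spread. Adult libraries 1 and 4 were also the deeper of the 4, and the part of depth in this was not tested.

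Arpc3A and Arpc3B encode alternative forms of the ARPC3 subunit of the Arp2/3 complex. Arpc3A had 105 and 75.4 CPM in L3 and 134, 95.3, 167 and 109.5 CPM in adult libraries 1 to 4. L3 library 1 lay within the adult range, and the log2 fold change of 0.42 (interval -0.39 to 1.24, adjusted p = 0.483) did not pass. Arpc3B was detected with 5 and 8 counts in L3, 1.89 and 4.16 CPM, and with 13 counts in adult library 1, 10.9 CPM. It had no count in adult libraries 2, 3 and 4, which allows up to 4.03, 3.29 and 2.33 CPM. With 13 counts in each stage it was removed by the filter on low counts and was not tested.

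The formins were sparse. The dia row, the only one of the 10 with no like neighbour, had 3.41 and 7.28 CPM in L3 and 7.51, 0, 7.67 and 6.99 CPM in adult libraries 1 to 4. The larval values fell inside the range of the adult values. The filter removed it, and the ratio of its pooled counts, 23 in L3 and 25 in adult, was 1.2 adult over L3, and its exact interval for counting error ran from 0.652 to 2.21. DAAM had 3.41 and 5.2 CPM in L3 and 1.67, 18.8, 12.1 and 24.1 CPM in adult. Of the adult libraries, 3 were above both larval values and adult library 1 below both, with 2 counts. Its log2 fold change of 1.68 was larger than that of Sra-1, but its SE was 0.97 and it did not pass (adjusted p = 0.229). In adult library 4 DAAM had 31 counts and CG32812 had 16, while in the other 5 libraries they differed by 2 counts or fewer.

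Of 44 other actin assembly genes listed, 42 were in the table, and all 42 could be tested. They split into 5 higher and 4 lower in adult, 21.4% of them called against 22.7% of all tested genes. Their median log2 fold change was -0.67, that of the 8 tested members 0.37 and that of all tested genes -0.14. Without L3 library 1 only Mtl and spir were called.

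Of the 6 other subunits of the Arp2/3 complex, 1 rose and 1 fell, 33.3% against 22.7% of all tested genes. The log2 fold change was negative in 5 of the 6, in 30 of the 42 other actin assembly genes and in 4904 of 9082 tested genes. Arpc1, a core subunit with the counts of tam, fell from 88.6 and 93.6 CPM in L3 to 14.2, 37.6, 28.5 and 24.8 CPM in adult (log2 fold change -1.89, SE 0.47, adjusted p = 0.00614). Arp2, an actin-related subunit as is Arp3, rose from 8.33 and 10.9 CPM to 85.2, 24.2, 19.7 and 26.4 CPM (log2 fold change 2.06, SE 0.73, adjusted p = 0.0471). Arp2 had no neighbour within 5%, and adult library 1 stood apart in it; without that library the call was lost (adjusted p = 0.279). Both calls were lost without L3 library 1 (adjusted p = 0.0797 for Arpc1 and 0.233 for Arp2), and that of Arp2 also without L3 library 2 (adjusted p = 0.154). Arp3, Arpc2, Arpc4 and Arpc5 had negative log2 fold changes between -1.92 and -0.32 and did not pass. The Arp3 row had the counts of CG7927 and the Arpc4 row those of WDR79. Arpc5 was at 62.5 CPM in L3 and 52.1 CPM in adult, with the counts of Drp1.

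Among other nucleators and promoting factors, 2 of 12 rose and 1 fell, 25.0% against 22.7% of all tested genes. The spir row, a nucleator that lines up actin monomers, had 235 and 150 CPM in L3 and 953, 611, 612 and 1227 CPM in adult (log2 fold change 2.08, SE 0.39, adjusted p = 0.000553). Its counts differed by 18 in 4644 from those of La, an RNA-binding protein. FAM21, a subunit of the WASH complex, had 1 count in L3 and 49 in adult, a ratio of pooled counts of 54.0, whose exact interval of 9.25 to 2175 covers counting error only and not the spread between libraries (adjusted p = 0.0325). CCDC53, another WASH subunit, fell from a mean of 1294 to 627 CPM (adjusted p = 0.0125), but its counts were those of the ribosomal protein gene RpL36A. The FAM21 and CCDC53 calls were lost without L3 library 1 (adjusted p = 0.243 and 0.306) and without adult library 4 (adjusted p = 0.0762 and 0.0537). For FAM21, leaving out L3 library 2 (adjusted p = 0.126) and leaving out adult library 2 (adjusted p = 0.0532) did the same.

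Upstream of the SCAR complex, the Rac-family GTPase gene Mtl rose from 10.6 and 17.7 CPM to 169, 87.2, 59.2 and 119 CPM (log2 fold change 2.98, SE 0.56, adjusted p = 0.00047). Every adult library lay above both larval ones. The neighbours CG5611 and tau differed from Mtl by 21.0% of the summed counts, mostly through adult library 4. Mtl had 28 and 34 counts in L3 and 203, 65, 54 and 153 in adult libraries 1 to 4. CG5611 and tau each had 15 and 16 in L3 and 212, 75, 58 and 368 in adult. Cdc42, the GTPase that acts on WASp, went the other way, from 162 and 174 CPM to 118, 72.5, 53.7 and 77.6 CPM (log2 fold change -1.07, SE 0.37, adjusted p = 0.0437), with the counts of CG14231. That call was lost when either L3 library was left out (adjusted p = 0.274 and 0.0998) and when adult library 2, 3 or 4 was (adjusted p = 0.0935 to 0.0986). Rac1 was at 137 and 108 CPM (adjusted p = 0.512). The Rac activator mbc was at 108 and 208 CPM (adjusted p = 0.0887).

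Of 12 regulators of filaments at the leading edge, 1 rose and 1 fell, 16.7% against 22.7% of all tested genes. Abl, the kinase that binds Abi, rose from 356 and 430 CPM to 808, 1358, 498 and 876 CPM (log2 fold change 1.15, SE 0.37, adjusted p = 0.0275), with the counts of Mo25. This call was lost on leaving out either L3 library (adjusted p = 0.13 and 0.108) and on leaving out adult library 2 or 4 (adjusted p = 0.0952 and 0.0575). The capping protein gene cpa, whose product stops filament growth, fell from 77.6 and 54.1 CPM to 27.6, 18.8, 1.10 and 20.2 CPM (log2 fold change -1.96, SE 0.58, adjusted p = 0.0173), with the counts of CG15653. It was lost without L3 library 1 (adjusted p = 0.261), with DESeq2 (adjusted p = 0.136) and with limma-voom (adjusted p = 0.0563).

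**Figure D5:**
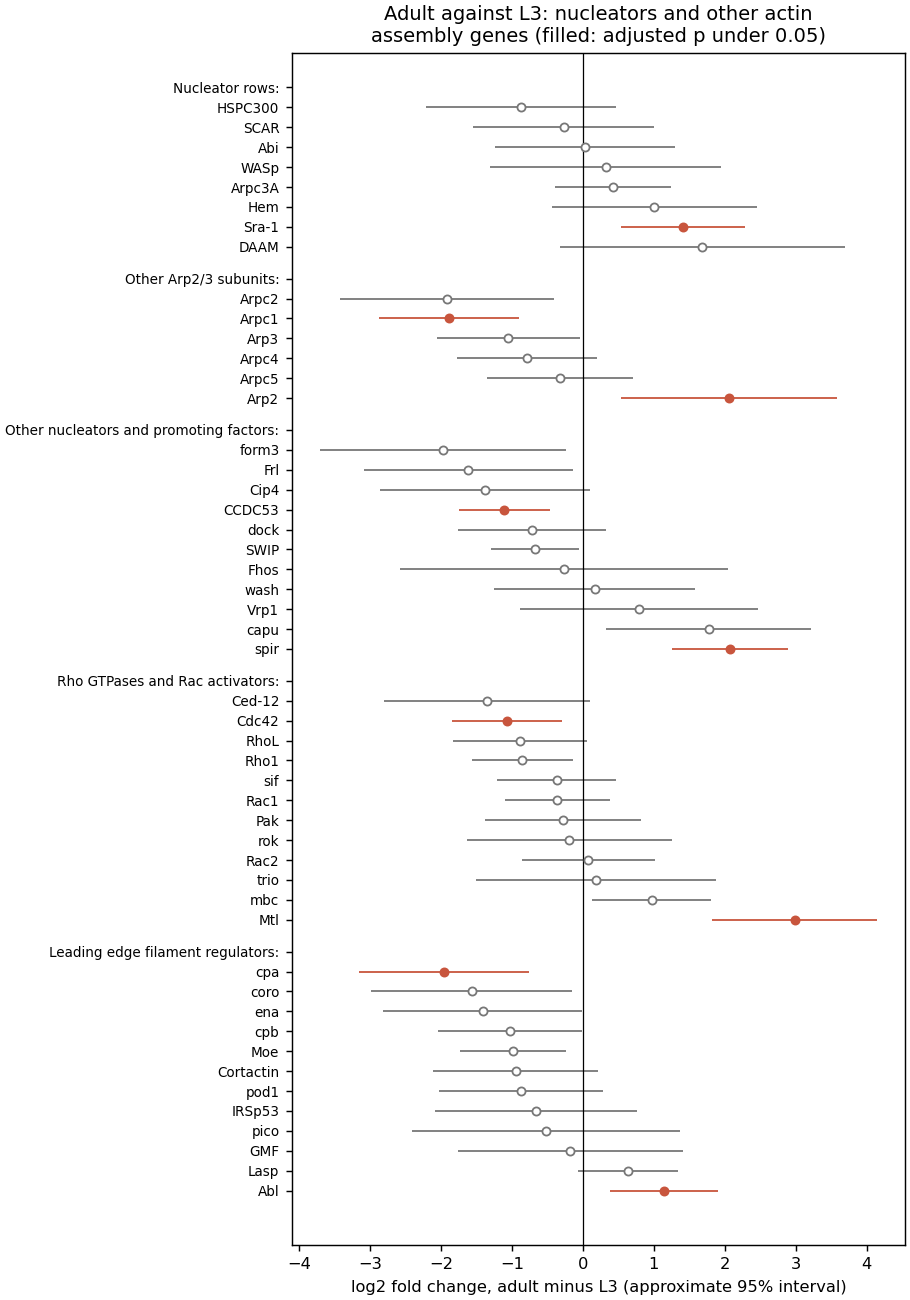
The log2 fold change, adult minus L3, with its approximate 95% interval, for 8 tested nucleator rows and 41 of the 42 other actin assembly genes. Filled red points passed an adjusted p of 0.05: Sra-1 of the nucleators, and Arp2, Arpc1, spir, CCDC53, Mtl, Cdc42, Abl and cpa of the rest; FAM21 is not drawn because it had 1 count in L3.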

How the data were processed

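The authors deposited whole-number counts per gene symbol, 1 column per library, without normalization; 0 columns belonged to other samples. Per the labels' protocols, libraries were made with a derivative of MARS-seq, which reads 3′ ends of polyadenylated RNA. HISAT 0.1.5, bcl2fastq and HOMER are named without a role in the submitters' processing notes. The sources used here give neither the genome build nor any collapsing of molecular identifiers. No coordinates or sequences are therefore given.

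CPM is the count scaled to the library total. Stages were compared with edgeR 4.0.16 (quasi-likelihood, legacy = FALSE, TMM, filterByExpr) in R 4.3.3 over 9082 genes, Benjamini-Hochberg adjusted, with a threshold of 0.05. Adjusted p-values are from this test unless another is named. SE is the absolute log2 fold change divided by the square root of F, so intervals are approximate. A count of 0 was bounded with 3 counts. Counts pooled over a stage were compared with exact 95% intervals. Alternatives were limma-voom (limma 3.58.1), DESeq2 1.42.0, edgeR's earlier method, scaling by RLE or the upper quartile, other filters (none, or 20 CPM in 2 libraries), thinning, 1 row per group sharing counts, leaving out each library and a replicate block. Both edgeR methods and limma-voom, but not DESeq2, were checked on simulated data for the sign of calls and the size of large changes. That check set no limit on the share of false calls. Gene names and neighbours came from RefSeq (Release 6 plus ISO1 MT) and Ensembl (BDGP6); Strump and WHAMY were not matched.

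The members and lists were chosen with earlier results of these data known. Named among the other genes were all that passed and the 1 of each list with the highest mean CPM over the 6 libraries; Rac1, Arp3, Arpc2 and Arpc4 were added after their values were seen.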

Additional observations from a re-analysis of the deposited data

Results flagged for a closer look

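Among the adult levels of 19 genes, 10 members and the 9 other genes that passed the test, 3 had 1 library whose gap to the nearest of the others exceeded Dixon's 95% critical value as a share of the adult range. For normally distributed levels, chance flags about 1 in 20 such groups of 4. Levels from low counts need not follow that rate, and a gene counted in only 1 adult library is always flagged.

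Arpc3B was at 10.9 CPM in adult library 1 and had no count in the other 3 adult libraries. The dia row was at 0 CPM in adult library 2, against 6.99 to 7.67 CPM in the other 3. Arp2 was at 85.2 CPM in adult library 1, against 19.7 to 26.4 CPM in the other 3.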

How the results depend on the processing

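The Sra-1 difference was positive under all 17 alternatives, between 0.97 and 2.11 on the log2 scale, and passed in 13, with adjusted p from 0.0109 to 0.21. The number of members called was 0 with the earlier quasi-likelihood method, 0 with the replicate block, 0 in the same 4 libraries without it and 0 to 1 when 1 library was left out. The number of other actin assembly genes called, 9 as reported, was 4 with the earlier method, 2 with the replicate block and 2 to 13 when 1 library was left out. Over all genes, 2059 as reported, it was 1079 with the earlier method, 1244 with 1 row per group of neighbours, 526 with the replicate block and 909 to 2196 when 1 library was left out. Of the 9 other actin assembly genes, DESeq2 did not call Arp2, Cdc42 and cpa (adjusted p = 0.0987, 0.096 and 0.136), and limma-voom did not call Arp2, FAM21 and cpa (adjusted p = 0.143, 0.0625 and 0.0563). Over all genes, DESeq2 called 767 higher and 681 lower, where edgeR called 878 and 1181.

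The sign changed only in members that did not pass. Abi was at -0.025 with limma-voom, -0.073 after thinning, -0.53 with the replicate block, -0.60 in the same 4 libraries without it, and between -0.32 (without L3 library 1) and 0.48 when 1 library was left out, with -0.29 without adult library 3. WASp was at -0.96 with limma-voom, -0.14 after thinning and between -0.22 (without adult library 1) and 0.74 when 1 library was left out. SCAR ranged from -0.76 to 0.085 (without adult library 1) when 1 library was left out. The cause was not tested.

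Same-numbered libraries of the stages correlated at 0.011 over 9082 genes, in their deviations from the mean of libraries 1 and 2 of their stage. Each stage gave only 1 difference between libraries, so this cannot decide whether the shared numbers mark pairs. A fit that leaves 1 L3 library assumes that it varies like the adult ones. The low counts of dia, Arpc3B, DAAM and HSPC300 limit the precision of their values.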
